A study of Mus musculus with 6 samples.

Results

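The unfolded protein response and the heat shock response are followed here through 43 mouse genes chosen by name: the sensors and transcription factors of the endoplasmic reticulum, the targets of the integrated stress response, the chaperones and folding enzymes of the reticulum, the machinery that removes misfolded proteins from it, 3 genes of protein entry and glycosylation, and the cytosolic heat shock proteins. Of these genes, 32 had an intact row with a known identifier and 6 usable values, out of 19033 such genes in all. No row was found under the identifiers of Xbp1, Atf5, Dnajb11, Calr, Canx, Pdia6, Sec61b, Ddost and Hspa1b, and those of Asns and Manf held an unreadable value, so these 11 genes are not analysed here. The RNA came from 3 old and 3 young mice of strain C57/BL6, every one of which had received acid injury. The tissue was lung, the cell type is given as endothelial cells, and each library came from a separate mouse. The sources used here do not give ages in months, sex, the time after injury or the way in which endothelial cells were obtained, and no library from uninjured lung was analysed. Values are FPKM, fragment numbers scaled to gene length and library size. Levels can be set beside each other between genes only roughly, since they depend on the gene length used and on sequence shared with other genes.

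Proteins that are secreted or sit in membranes fold inside the endoplasmic reticulum. When folding falls behind, 3 sensors in its membrane respond: IRE1 (gene Ern1), PERK (Eif2ak3) and ATF6. IRE1 splices the Xbp1 messenger, PERK phosphorylates a translation factor so that ATF4 is made, and ATF6 is cut to release a transcription factor. Their combined output raises chaperones and the degradation machinery that carries failed proteins back to the cytosol. The cytosol has its own program, in which heat shock factor 1 induces HSP70, HSP90, HSP40 and small heat shock proteins. Endothelial cells of the lung secrete matrix and clotting proteins and meet oxidants and mechanical strain, settings in which both programs are known to act. Activation of the sensors themselves is by cleavage, splicing or phosphorylation, which gene-level FPKM values do not report.

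Both programs read DNA elements in front of their genes. The elements are shown here for members whose values follow, because they are sites through which the branches are known to act. RefSeq promoter windows on GRCm38.p6, from 250 bases before the start to 50 after it, were matched by symbol for 37 of the 43 genes, 27 of them among the 32 with values. The reticulum stress element, CCAAT followed after 9 bases by CCACG and read on either strand, is the site of ATF6 with its partner NF-Y. It was found in the windows of 9 of the 37 genes (24.3%), against 0.119% of all 32851 windows. The first share counts genes and the second counts windows, which belong to 27025 symbols. The members were chosen as genes of these responses, so the contrast is not a test. A match is a description of the letters, not proof of a site. Of the 6 with values, the stretch around the element is given here 5′ to 3′ along the gene's strand, with the letters of the element in capitals. Hsp90b1, which held 2 such elements, is shown at the one nearer the start.
Hspa5 (chr2:34772010-34772058, plus strand): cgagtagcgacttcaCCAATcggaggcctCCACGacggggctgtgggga
Hsp90b1 (chr10:86705518-86705566, minus strand): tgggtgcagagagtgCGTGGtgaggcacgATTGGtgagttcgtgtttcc
Dnajc3 (chr14:118937812-118937860, plus strand): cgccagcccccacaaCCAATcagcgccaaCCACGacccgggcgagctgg
Creld2 (chr15:88819505-88819553, plus strand): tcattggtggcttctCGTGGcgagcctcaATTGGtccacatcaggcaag
Syvn1 (chr19:6046517-6046565, plus strand): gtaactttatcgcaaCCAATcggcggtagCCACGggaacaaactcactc
Derl3 (chr10:75893227-75893275, plus strand): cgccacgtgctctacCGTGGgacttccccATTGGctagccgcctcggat

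Herpud1 is shown because its window carried elements of both branches. The second reticulum stress element, ATTGG, 1 base and CCACG, began 52 bases before the start and was found in 0.0365% of windows. A pair of amino acid response elements, the composite sites of ATF4 with C/EBP proteins, stood further upstream. One reads TTGCATCA, found in 0.895% of windows on either strand, and the other TTGCGTCA, found in 0.49% and here on the opposite strand. Capitals mark the 3 elements.
Herpud1 (chr8:94386289-94386397, plus strand): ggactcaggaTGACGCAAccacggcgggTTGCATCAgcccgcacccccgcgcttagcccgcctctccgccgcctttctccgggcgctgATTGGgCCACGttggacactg
Among the other genes with values, Chac1 also held both forms of the amino acid response element, and Dnajb9 the second form.

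Heat shock factor 1 binds repeats of GAA and TTC spaced by 2 bases. A run of 3 such units was found in 0.603% of all windows and, among members, in Hsph1 alone, just after its start. A pair of units, GAA and TTC in either order, was more common, at 7.86% of windows for GAA first and 8.52% for TTC first. Hspa1a and Dnajb1 are given beside each other because they work together and their ratio differed between the groups. Among members with values the first order was found in Hspa1a, Hspb1, Hsph1 and Ssr1, and the second in Eif2ak3 and Hsph1. The capitals mark units in a run or a pair, and the Dnajb1 stretch, from the first of its 2 windows, held none in these letters, which says nothing about binding of the factor there.
Hsph1 (chr5:149636280-149636308, minus strand): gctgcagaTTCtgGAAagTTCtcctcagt
Hspa1a (chr17:34972157-34972306, minus strand): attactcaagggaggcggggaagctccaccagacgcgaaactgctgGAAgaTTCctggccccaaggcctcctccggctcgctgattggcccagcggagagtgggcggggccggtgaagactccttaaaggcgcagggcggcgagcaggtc
Dnajb1 (chr8:83608025-83608174, plus strand): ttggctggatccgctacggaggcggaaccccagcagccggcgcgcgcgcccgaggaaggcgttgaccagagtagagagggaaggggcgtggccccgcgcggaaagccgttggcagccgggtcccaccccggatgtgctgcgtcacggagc

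Library depth, as implied by the step between FPKM values, was 11381122 to 17931463 fragments in old mice and 14903398 to 17723926 in young mice. The makeup of the libraries differed between the groups. The summed level of the 14 of 16 endothelial markers with values was 47.4 to 171 FPKM in the old and 568 to 1553 FPKM in the young animals. All 14 had a log2 fold change below 0, and 11 were called lower in old mice by the test given below. Pecam1, an adhesion molecule of endothelial junctions, was at 3.73 to 7.90 FPKM in the old and 40.0 to 111 FPKM in young animals. The 7 of 9 fibroblast markers with values summed to 2117 to 4857 FPKM in the old and 119 to 219 FPKM in the young animals. All 7 were higher in old mice without overlap, and 6 of them were called. Epithelial markers (9 of 12) summed to 1291 to 1619 FPKM in the old and 117 to 326 FPKM in the young animals, mostly from Krt8 and Krt18. Of the 7 tested, 3 were called higher in old mice, while Sftpd, Ager and Sftpa1 overlapped. Mesothelial markers (6 of 6) summed to 171 to 456 FPKM in old animals, against 9.33 to 40.8 FPKM in young animals, with 3 called higher. B and plasma cell markers (9 of 12) summed to 1451 to 3742 FPKM in the old and 29.3 to 391 FPKM in young animals, and none of the 8 tested passed. The 7 of 9 neutrophil markers with values summed to 324 to 919 FPKM in old animals, against 54.2, 23731 and 24226 FPKM in young animals 1, 2 and 3. Smooth muscle and pericyte markers (6 of 8) summed to 737, 815 and 631 FPKM in old animals and 67.4, 1299 and 66.6 FPKM in young animals. T and natural killer cell markers (9 of 9) summed to 282, 1809 and 91 FPKM in old animals and 4.64, 52.4 and 78.4 FPKM in young animals. The markers with values of the endothelial, fibroblast and neutrophil lists were above 0 in every library. Sftpb and Sftpa1 (epithelial), Lrrn4 (mesothelial), Tnfrsf17 (plasma cell), and Cd4 and Klrd1 (T and natural killer cell) were listed at 0 in at least 1 library. The part that these shifts in cell makeup have in the values that follow was not tested, and in bulk libraries fewer cells of a type and less RNA per cell cannot be told apart.

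Of the 31 members with a mean of at least 1 FPKM, which were tested with limma at an adjusted p of 0.05 over all 10010 such genes, 1 changed. Dnajb1, an HSP40 co-chaperone of the cytosol, was higher in old mice, and the other 30 did not pass. The call rate was thus 3.23% among members, against 4.98% of all genes tested. By direction, 1 of 31 members was called higher, against 2.95% of all genes, and 0 lower, against 2.03%. At an unadjusted p under 0.05, 4 of 31 members (12.9%), 1 higher and 3 lower, and 23.1% of all genes passed. Old and young values did not overlap for 9 members (29%), against 31.1% of all genes. The old values were the higher ones for Dnajb1 and Hspa8 (6.45% of members, against 14.5% of genes), and the lower ones for Hspa5, Hsp90b1, Hyou1, Sel1l, Syvn1, Derl1 and Derl2 (22.6% of members, against 16.7% of genes). The shares of members called or without overlap were thus near or under those of all genes, except the share with lower values in old mice, which was somewhat above it.

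**Figure D1:**
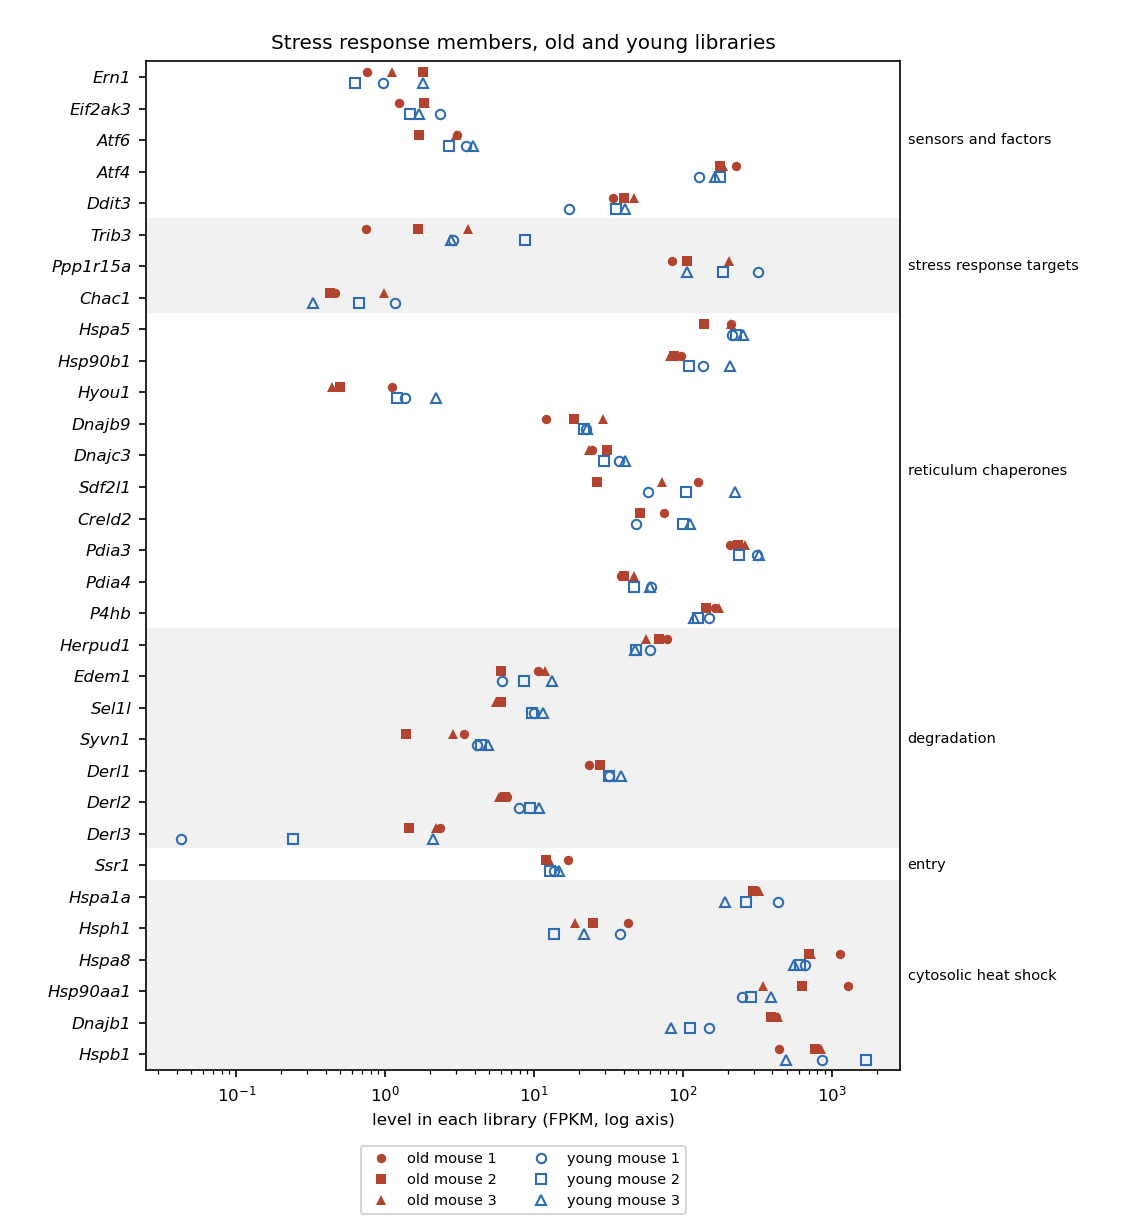
Level of each of the 32 members with values (rows, grouped by role) in each library, in FPKM on a log axis. Filled red symbols are the 3 old mice and open blue symbols the 3 young mice. The old and young symbols of Dnajb1 lie apart, at 391 to 433 and 82.7 to 150 FPKM, while those of 22 of the 31 members tested interleave.

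The members covered a wide range of levels. Hspb1, Hspa8 and Hsp90aa1 were among the most abundant messengers measured, with means over the 6 libraries of 852, 732 and 533 FPKM. At the low end were Chac1 at 0.675, Hyou1 at 1.13, Ern1 at 1.17, Derl3 at 1.4 and Eif2ak3 at 1.74 FPKM. The median log2 fold change over the 31 members, old minus young in log2(FPKM + 1), was -0.30, against -0.011 over all genes tested. It was below 0 for 18 members and above 0 for 13. By role, the median was 0.07 for 5 sensors and transcription factors, -0.75 for 2 targets of the integrated stress response, -0.42 for 10 reticulum chaperones, -0.36 for 7 degradation genes and 0.36 for 6 cytosolic heat shock genes.

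**Figure D2:**
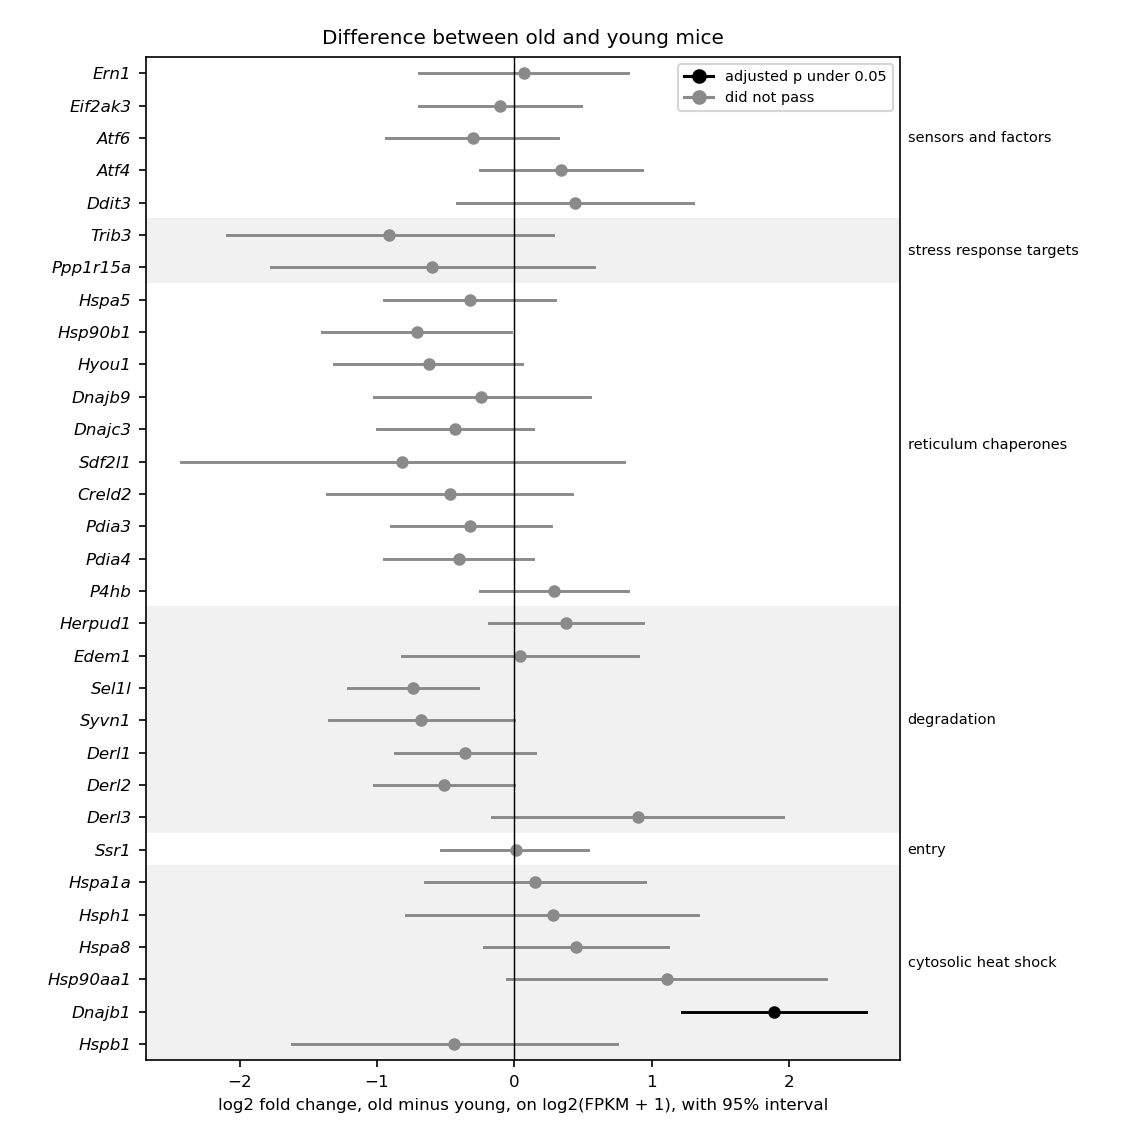
Log2 fold change (old minus young, on log2(FPKM + 1)) of the 31 tested members, with the 95% interval from limma. Black marks the call for Dnajb1, with an interval of 1.22 to 2.56, and grey the 30 members that did not pass. Points of reticulum chaperones lie left of 0 for 9 of 10 genes, while 5 of 6 heat shock points lie right of it.

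The sensors and their transcription factors had overlapping levels in the 2 groups. Ern1, the IRE1 kinase and nuclease, was at 0.750, 1.8 and 1.11 FPKM in old animals 1, 2 and 3 and at 0.973, 0.623 and 1.8 FPKM in young animals. Eif2ak3, the PERK kinase, was at 1.23, 1.82 and 1.86 FPKM in old animals and at 2.34, 1.48 and 1.68 FPKM in young animals. These messengers were scarce, and the lowest library held 79 fragments of Ern1 and 98 of Eif2ak3. The exons of Eif2ak3 overlap 485 bases of Gm43292 on the opposite strand. Atf6 was at 3.02, 1.68 and 2.99 FPKM in old animals and at 3.51, 2.67 and 3.87 FPKM in young animals, with a log2 fold change of -0.30 (95% interval -0.93 to 0.32). Old mouse 2 had the lowest value, and the other old values lay within the young range.

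Atf4, which the PERK branch controls mainly through translation, was abundant in every library. It was at 228, 179 and 186 FPKM in old animals and at 128, 179 and 164 FPKM in young animals, a log2 difference of 0.34 ± 0.25 (SE, limma adjusted p = 0.448). Ddit3, the factor CHOP that ATF4 induces under lasting stress, was at 33.8, 40.3 and 47.1 FPKM in old animals and at 17.1, 35.3 and 40.9 FPKM in young animals. Young mouse 1 was the lowest for both factors, and the groups overlapped. The difference for Ddit3 was 0.44 (95% interval -0.42 to 1.30). The ratio of Ddit3 to Atf4, examined after the values were seen, was 0.209 ± 0.0543 in old and 0.194 ± 0.0585 in young mice (SD, n = 3 each), and thus covered similar ranges.

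Targets downstream of ATF4 and CHOP did not share an order across all 6 libraries, though Trib3 and Ppp1r15a both rose from old mouse 1 to old mouse 3. Trib3, a pseudokinase that feeds back on ATF4 and CHOP, was at 0.747, 1.65 and 3.60 FPKM in old animals and at 2.84, 8.67 and 2.78 FPKM in young animals. Ppp1r15a, the phosphatase subunit GADD34 that restores translation, was at 84.5, 106 and 203 FPKM in old animals and at 320, 186 and 106 FPKM in young animals. Trib3 was highest in young mouse 2 and Ppp1r15a in young mouse 1, both known targets of ATF4. Their log2 fold changes were -0.91 ± 0.50 and -0.60 ± 0.50 (SE, limma adjusted p = 0.322 and 0.497). The ratio of Ppp1r15a to Atf4, examined after the values were seen, overlapped, at 0.371, 0.592 and 1.09 in old and 2.5, 1.04 and 0.651 in young mice. Chac1, a glutathione-degrading enzyme whose window held both amino acid response elements, was near the limit of detection. It was at 0.462, 0.429 and 0.988 FPKM in old animals and at 1.17, 0.669 and 0.328 FPKM in young animals, on 8 to 34 fragments per library, and was below the filter for testing.

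Of the 10 chaperones and folding enzymes of the reticulum, 9 had a log2 fold change below 0, and none passed. Hspa5, the HSP70 chaperone BiP that holds the 3 sensors inactive and whose promoter element is printed above, was at 212, 139 and 212 FPKM in old animals and at 215, 226 and 253 FPKM in young animals. Every young value was above every old one, but old mice 1 and 3 came close to the lowest young value, and old mouse 2 alone stood well below the rest. The log2 fold change of Hspa5 was -0.32 ± 0.26 (SE, limma adjusted p = 0.489), with a 95% interval of -0.95 to 0.30. Hsp90b1, the HSP90 chaperone GRP94, was at 97.7, 86.6 and 81.8 FPKM in old animals and at 136, 110 and 206 FPKM in young animals. The old values lay close together and below all young ones, among which young mouse 3 was the highest. Its log2 fold change was -0.71 ± 0.29 (SE, adjusted p = 0.205 in limma). Reads of Hsp90b1 may include some of a pseudogene on the opposite strand, 1810014B01Rik, which overlaps 415 bases of its exons, since strand was not stated.

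Hyou1, a large chaperone that exchanges nucleotide on BiP, was scarce, at 1.11, 0.498 and 0.440 FPKM in old animals and at 1.35, 1.21 and 2.19 FPKM in young animals. Its groups did not overlap, with a log2 fold change of -0.62 ± 0.29 (SE, adjusted p = 0.254 in limma). Dnajc3, the BiP co-chaperone p58IPK, was at 24.7, 30.9 and 23.5 FPKM in old animals and at 37.0, 29.7 and 41.1 FPKM in young animals. Old mouse 2 overlapped with young mouse 2 there, and the adjusted p was 0.325 in limma. Dnajb9, the BiP co-chaperone ERdj4, was nearly constant in young mice at 21.8 to 22.7 FPKM, while the old values of 12.1, 18.6 and 29.2 FPKM lay on both sides. Its mean was thus almost the same in both groups, at 20.0 ± 8.63 FPKM in the old and 22.3 ± 0.438 FPKM in young animals (SD, n = 3 each).

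Sdf2l1 and Creld2, induced early in reticulum stress, varied widely within groups. Sdf2l1, which assists BiP, was at 126, 26.4 and 72.9 FPKM in old animals and at 58.3, 105 and 223 FPKM in young animals, an 8.46-fold span between the highest and lowest library. Creld2, a secreted isomerase-like protein, was at 75.0, 51.6 and 51.4 FPKM in old animals and at 48.1, 99.6 and 111 FPKM in young animals. For both genes young mouse 3 was the highest and young mouse 1 was among the lowest libraries, and the groups overlapped. The 95% interval of the log2 fold change ran from -2.43 to 0.80 for Sdf2l1 and from -1.36 to 0.42 for Creld2.

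Among the enzymes that form disulfide bonds, Pdia3, which works with calreticulin and calnexin on glycoproteins, was at 207, 236 and 260 FPKM in old animals and at 317, 240 and 326 FPKM in young animals. Pdia4 was at 38.4, 40.2 and 47.1 FPKM in old animals and at 61.3, 46.7 and 60.1 FPKM in young animals. Young mouse 2 overlapped the old range for both, and young mice 1 and 3 were above it. P4hb, protein disulfide isomerase and also a subunit of collagen prolyl hydroxylase, was the exception in direction. It was at 164, 144 and 176 FPKM in old animals and at 150, 127 and 119 FPKM in young animals, a log2 difference of 0.29 ± 0.23 (SE, limma adjusted p = 0.479). The ratio of Hspa5 to P4hb, chosen after the values were seen, was 1.29, 0.967 and 1.21 in old and 1.43, 1.78 and 2.13 in young mice, without overlap.

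The groups did not overlap for Sel1l, Syvn1, Derl1 and Derl2, with every old value below every young one, and overlapped for Herpud1, Edem1 and Derl3. Such a lack of overlap was seen in 4 of 7 degradation genes, against 16.7% of all genes, and none of the 7 passed. Among 20 other degradation genes tested, it was seen in 1. Sel1l and Syvn1 encode the scaffold and the ubiquitin ligase (HRD1) of the main channel complex, and the derlins sit in that complex. Sel1l (chromosome 12, 91806043 to 91849157 on GRCm38, minus strand, 20 merged exons in GENCODE M21) was at 6.03, 5.96 and 5.54 FPKM in old animals and at 10, 9.71 and 11.5 FPKM in young animals. The spread within each group was small, at 5.84 ± 0.264 FPKM in the old and 10.4 ± 0.979 FPKM in young animals (SD, n = 3 each), and at least 580 fragments stood behind each value. The log2 fold change was -0.74 ± 0.20 (SE), the limma adjusted p was 0.0861 and the unadjusted p was 0.00817, the smallest among members after Dnajb1.

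Syvn1 was at 3.38, 1.38 and 2.85 FPKM in old animals and at 4.14, 4.40 and 4.89 FPKM in young animals. Old mouse 2 was far below the others, on 75 fragments, and the difference was -0.68 ± 0.29 (SE, limma adjusted p = 0.218). Derl1 was at 23.3, 27.9 and 27.6 FPKM in old animals and at 31.9, 32.0 and 38.2 FPKM in young animals. Derl2 was at 6.54, 6.36 and 5.79 FPKM in old animals and at 7.90, 9.40 and 10.8 FPKM in young animals. Young mouse 3 was the highest library for Sel1l, Syvn1, Derl1 and Derl2 alike. The log2 fold changes were -0.36 ± 0.22 for Derl1 and -0.51 ± 0.21 for Derl2 (SE, limma adjusted p = 0.354 and 0.214). On the opposite strand, Mrpl49 overlaps 91 bases of the exons of Syvn1, and Mis12 overlaps 231 bases of those of Derl2. Reads of these bases cannot be told apart without strand.

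Herpud1, a component of the same complex whose elements are printed above, ran the other way. It was at 78.1, 69.6 and 56.7 FPKM in old animals and at 59.7, 48.7 and 47.6 FPKM in young animals, and old mouse 3 lay within the young range. Its log2 fold change was 0.38 ± 0.24 (SE, adjusted p = 0.373 in limma). The ratio of Sel1l to Herpud1 was 0.0772, 0.0856 and 0.0977 in old mice and 0.167, 0.199 and 0.242 in young mice. The ratio was chosen after the values were seen and is given without a test. The ratio of Sel1l to Edem1, chosen in the same way, overlapped, at 0.563, 0.997 and 0.469 in old and 1.65, 1.13 and 0.871 in young mice. Edem1, a lectin that passes glycoproteins to degradation, was at 10.7, 5.98 and 11.8 FPKM in old animals and at 6.05, 8.59 and 13.2 FPKM in young animals, so that the groups covered similar ranges. Derl3, the derlin found mainly in secretory cells such as plasma cells, was at 2.32, 1.45 and 2.21 FPKM in old animals and at 0.0422, 0.241 and 2.11 FPKM in young animals. Young mice 1 and 2 held 1 and 5 fragments of Derl3, against 42 in young mouse 3 and 22 to 53 in old mice. Summed B and plasma cell markers were 1451, 1566 and 3742 FPKM in the old and 29.3, 227 and 391 FPKM in young animals. Except in young mouse 1, nearly all of that sum was Igkc, an immunoglobulin light chain gene. Igkc was at 1415, 1485 and 3649 FPKM in old animals and 10.2, 205 and 358 FPKM in young animals. Of the 8 tested markers of that list, 7 had a log2 fold change above 0, and 1, Prdm1, was below 0 at -0.39. The groups overlapped for 5 of the 8, among them Sdc1, at 7.57, 19.5 and 23.9 FPKM in old animals and 13.6, 9.69 and 8.28 FPKM in young animals. The order of the libraries was the same for Derl3 and the sum in young mice and differed in old mice. The part of plasma cells in the Derl3 values was not tested.

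**Figure D3:**
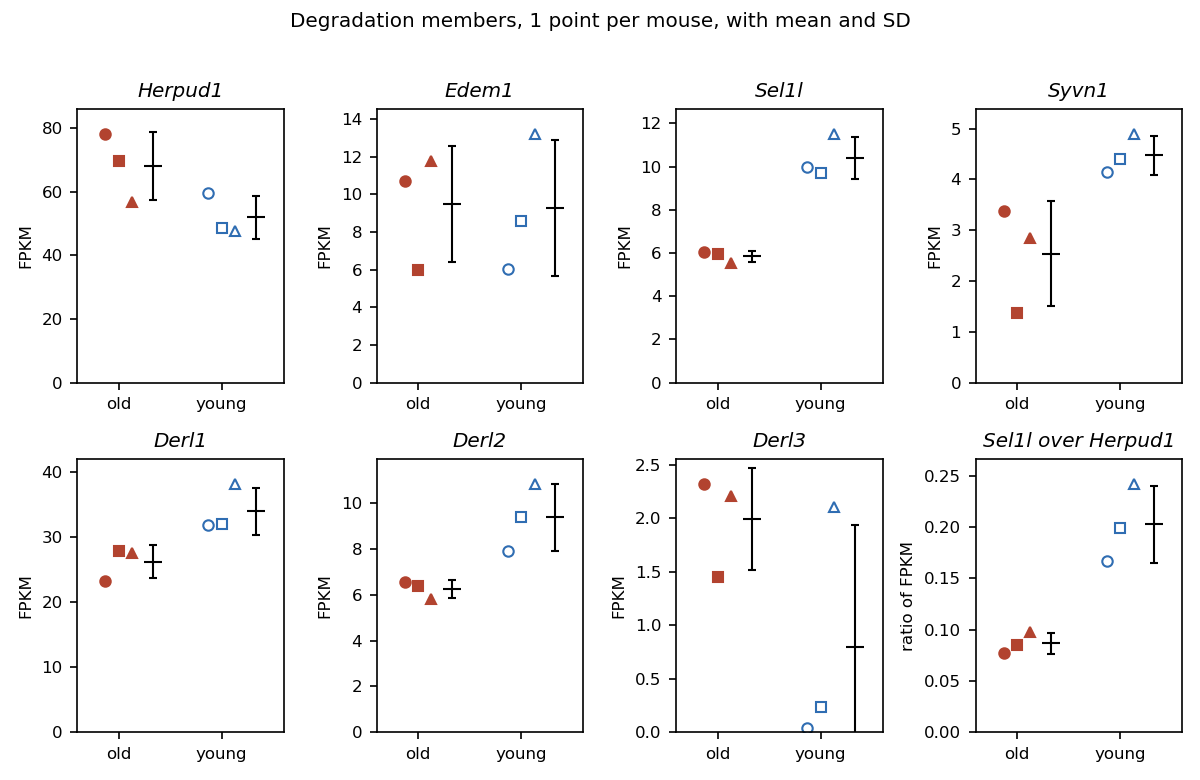
FPKM of the 7 degradation members and the ratio of Sel1l to Herpud1 (vertical axes from 0), with 1 symbol per mouse (filled, old, at left of each panel; open, young) and the mean with SD beside the symbols. The Derl3 bar of young mice would reach below 0 and is cut at the axis. Sel1l lies at 5.54 to 6.03 FPKM in the old and 9.71 to 11.5 FPKM in young animals, while Edem1 covers similar ranges in both groups.

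Of the entry genes, Ssr1, a subunit of the translocon-associated complex, was the one with values. It was at 16.9, 12.1 and 12.6 FPKM in old animals and at 13.6, 12.8 and 14.8 FPKM in young animals. The means were level, with a log2 fold change of 0.01 and a 95% interval of -0.53 to 0.54.

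The cytosolic heat shock genes held the only call. Dnajb1 (chromosome 8, 83608193 to 83612653 on GRCm38, plus strand, 4 merged exons in GENCODE M21), the HSP40 that delivers substrates to HSP70 and is a textbook target of heat shock factor 1, was at 424, 391 and 433 FPKM in old animals and at 150, 112 and 82.7 FPKM in young animals. The highest old value was 1.11 times the lowest, and the lowest old value, 391 FPKM, was far above the highest young one, 150 FPKM. Means were 416 ± 22.1 FPKM in the old and 115 ± 33.7 FPKM in young animals (SD, n = 3 each), and the level was 3.7-fold higher in old mice, with a log2 fold change of 1.89 ± 0.28 (SE, adjusted p = 0.0201 in limma). At least 2789 fragments stood behind each value. The FPKM values imply a gene length of 2263 bases for Dnajb1, against 3204 merged exon bases in GENCODE M21, which scales its level alike in all libraries. Immediate early genes, which respond to tissue handling, summed to 2284, 2718 and 3643 FPKM in old animals and to 1911, 2864 and 2501 FPKM in young animals (7 of 10 genes). None of the 7 passed, 6 had a log2 fold change above 0, and 1, Ier2, did not overlap, at 425, 398 and 471 FPKM in old animals and 195, 342 and 215 FPKM in young animals. The part of tissue handling, of neutrophils and of fibroblast and epithelial RNA in the Dnajb1 difference was not tested. The call is close to the threshold: the fold change stayed between 1.67 and 2.10 on the log2 scale in 16 alternative analyses, but the adjusted p was 0.0575, 0.0731 and 0.0800 without old mouse 1, 2 or 3 and 0.0526 without young mouse 3.

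Of the 6 heat shock genes, 5 had a log2 fold change above 0, but those other than Dnajb1 did not pass. Hspa1a, the inducible HSP70 with which Dnajb1 works, was at 312, 297 and 326 FPKM in old animals and at 436, 267 and 192 FPKM in young animals, with young mouse 1 above and the other young mice below the narrow old range. Its log2 fold change was 0.15 (95% interval -0.65 to 0.95). The ratio of Dnajb1 to Hspa1a, chosen after the values were seen, was 1.36, 1.31 and 1.33 in old mice and 0.344, 0.419 and 0.431 in young mice. Among young mice the ratio varied less than either gene did. Among old mice both genes varied little, with a highest value 1.09 times the lowest for Hspa1a and 1.11 times for Dnajb1. The groups were far apart in the ratio, as they were in Dnajb1 itself. Chosen in the same way, the ratio of Dnajb1 to Hsph1 varied more, at 9.82, 15.7 and 23 in old and 3.99, 8.25 and 3.8 in young mice. That of Dnajb1 to Hspa8 was 0.371, 0.557 and 0.601 in old and 0.226, 0.182 and 0.149 in young mice. Of the 50-base words in Hspa1a transcripts, 58.8% also occur in Hspa1b, so the counting may have split or dropped reads between these copies. Gm20481 on the opposite strand also overlaps 564 bases of Hspa1a.

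Hsph1, an HSP110 that exchanges nucleotide on HSP70 and holds the heat shock element run shown above, was at 43.1, 25.0 and 18.9 FPKM in old animals and at 37.6, 13.6 and 21.8 FPKM in young animals. Mouse 1 was the highest of each group, and the groups overlapped over most of their range. Hspa8, the constitutive HSP70, was at 1140, 702 and 721 FPKM in old animals and at 663, 614 and 554 FPKM in young animals. All old values were above the young ones, though old mice 2 and 3 only slightly, with a log2 fold change of 0.45 ± 0.28 (SE, adjusted p = 0.375 in limma). Hsp90aa1, the inducible cytosolic HSP90, was at 1292, 629 and 348 FPKM in old animals and at 251, 287 and 389 FPKM in young animals. Old mouse 3 lay within the young range, and the old mean of 756 ± 485 FPKM rested on old mouse 1 (young, 309 ± 71.3 FPKM; SD, n = 3 each). The difference was 1.11 ± 0.49 (SE, limma adjusted p = 0.235). Hspb1, the small heat shock protein HSP25, was at 443, 777 and 845 FPKM in old animals and at 857, 1693 and 496 FPKM in young animals, a 3.41-fold span among the young mice. Its difference was -0.44 ± 0.50 (SE, limma adjusted p = 0.627). Sequence shared with pseudogenes or paralogs makes these levels uncertain: 47.5% of the 50-base words of Hsp90aa1, 39.4% of those of Hspa8 and 50.1% of those of Hspb1 occur in other genes' transcripts, against 0.412% for Dnajb1.

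**Figure D4:**
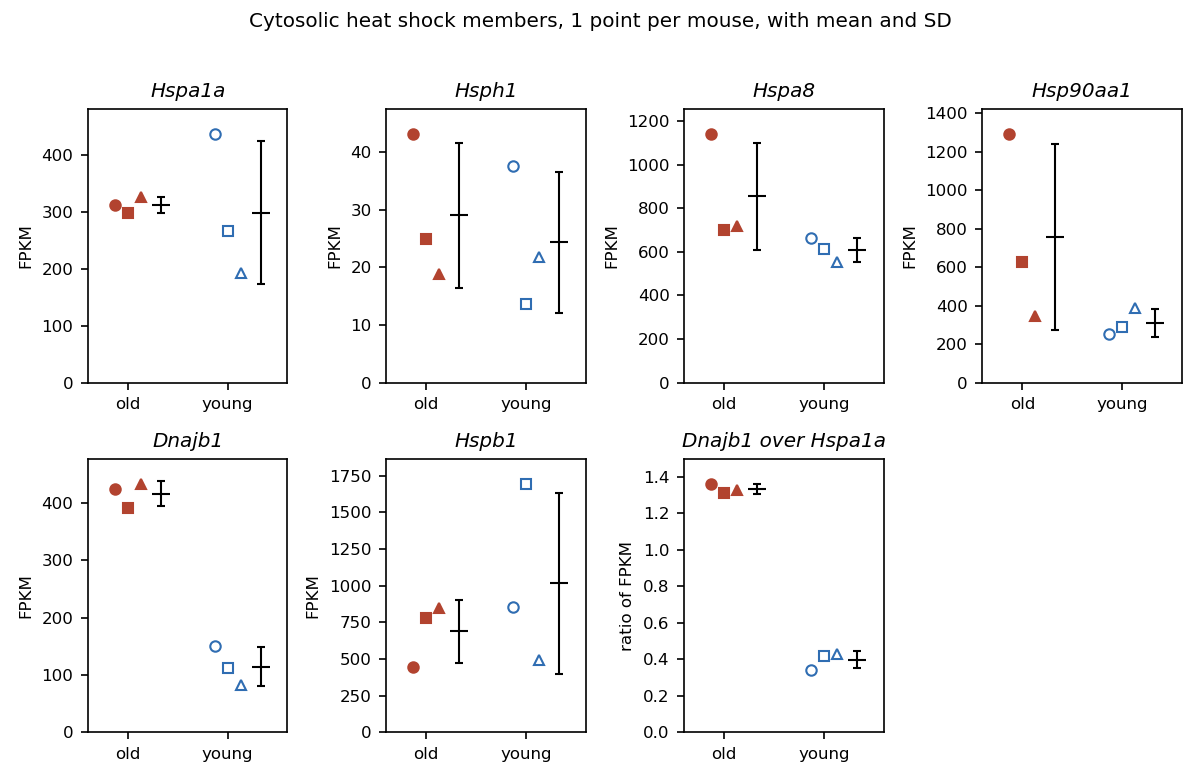
FPKM of the 6 cytosolic heat shock members and the ratio of Dnajb1 to Hspa1a (vertical axes from 0), with 1 symbol per mouse (filled, old, at left of each panel; open, young) and the mean with SD beside the symbols. Dnajb1 is at 391 to 433 FPKM in the old and 82.7 to 150 FPKM in young animals, and its ratio to Hspa1a at 1.31 to 1.36 and 0.344 to 0.431, while Hspa1a itself overlaps.

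Single libraries stood out across many members. Young mouse 3 was the highest of the 6 libraries for 14 of the 32 members, including 7 of 10 reticulum chaperones and 5 of 7 degradation genes, and for none of the 6 heat shock genes, of which it was the lowest for 3. The median deviation from the mean of the 6 libraries, in log2(FPKM + 1), was 0.37 for the reticulum chaperones and 0.45 for the degradation genes in young mouse 3, against 0.16 and 0.05 in young mouse 1 and 0.02 and 0.10 in young mouse 2. In old mice 1, 2 and 3 it was -0.09, -0.32 and -0.11 for the chaperones and 0.02, -0.23 and -0.11 for degradation. Old mouse 2 thus had the lowest and young mouse 3 the highest median of both roles. For the heat shock genes the median deviation was 0.73 in old mouse 1, against 0.01 and 0.08 in old mice 2 and 3, and 0.03, -0.42 and -0.49 in young mice 1, 2 and 3. These counts and medians were not set against those of all genes. A trait of a whole library thus cannot be told apart here from a trait of the members. Young mouse 3 was also the library with the highest summed macrophage markers, 9901 FPKM against 170 and 3340 FPKM in young animals 1 and 2, and the part of these cells in its chaperone levels was not tested.

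**Figure D5:**
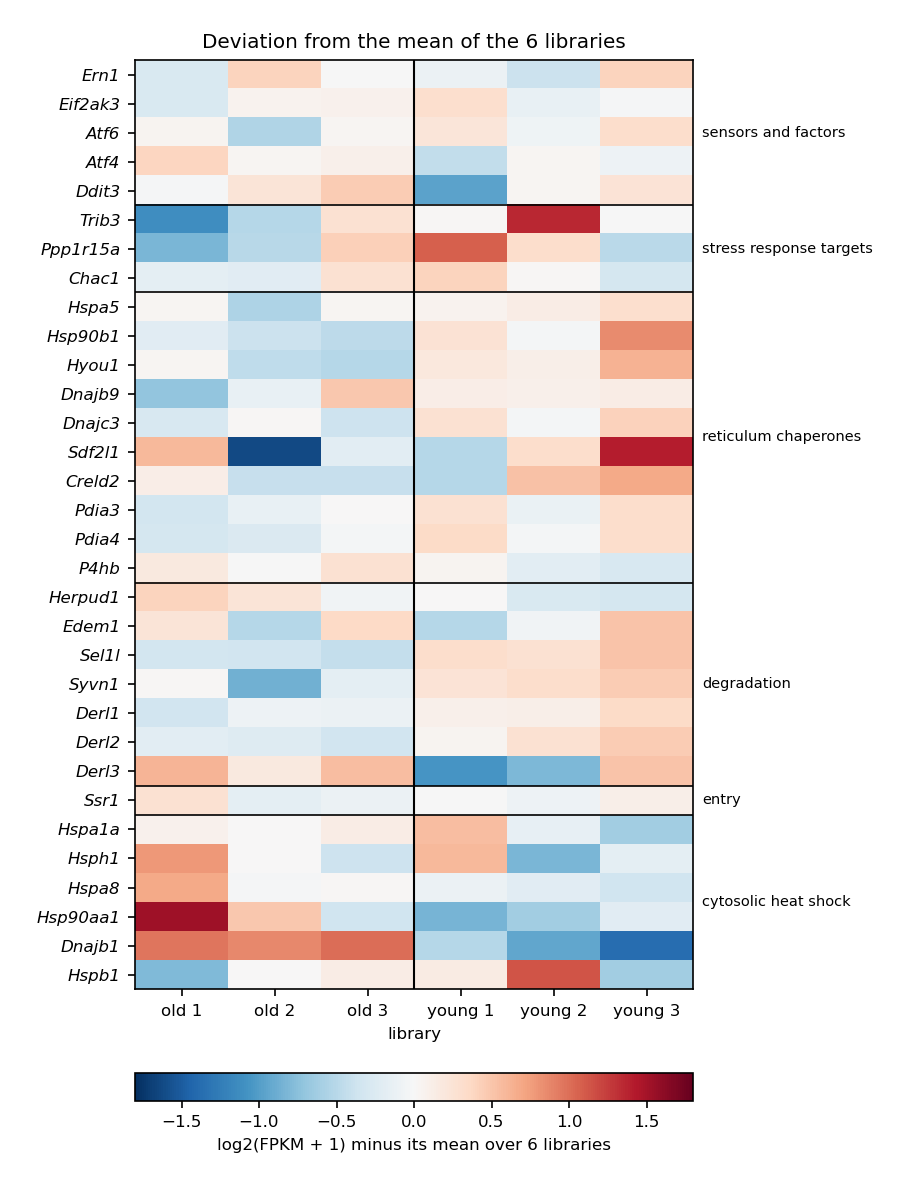
Deviation of each of the 32 members with values (rows) from its own mean over the 6 libraries (columns, old at left), in log2(FPKM + 1), from blue (lower) to red (higher). Young mouse 3 is red for most chaperones and degradation genes, with a median of 0.37 and 0.45, and Dnajb1 is the row that is red in all 3 old and blue in all 3 young mice by the widest margin.

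Further genes of both programs were taken from 8 lists of 225 genes, of which 171 could be tested. Of these, 5 were higher in old mice, 0 were lower and 166 did not pass, and the median log2 fold change was 0.08. The share called higher, 2.92%, was near that of all genes, 2.95%. Without overlap, 25 of the 171 had higher and 23 had lower values in old mice, against 14.5% and 16.7% of all genes. At an unadjusted p under 0.05, 18 were higher (10.5%) and 14 lower (8.19%), together fewer than the 23.1% of all genes in either direction. Fkbp11, a prolyl isomerase of the secretory pathway, was at 61.2, 67.8 and 79.2 FPKM in the old and 14.7, 22.6 and 14.7 FPKM in young animals (log2 fold change 1.96 ± 0.26, limma adjusted p = 0.0143). Fkbp10, an isomerase that chaperones collagen, was at 28.6 ± 8.54 FPKM in the old and 8.51 ± 2.52 FPKM in young animals (SD, n = 3 each), and Plod2, a lysyl hydroxylase of collagen, at 13.9 ± 5.61 and 2.37 ± 1.62 FPKM. Both act on collagen, and Col1a1, which encodes a chain of type I collagen, was at 216 ± 62.9 FPKM in the old and 11.2 ± 1.82 FPKM in young animals. The part of fibroblast RNA in these 3 differences was not tested.

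In the cytosol, 2 of 35 tested genes beyond the members were called, both higher, against 2.95% of all genes called higher. Hspb8, a small heat shock protein of chaperone-assisted autophagy, was at 20.6, 31.5 and 33.9 FPKM in the old and 5.15, 8.72 and 3.13 FPKM in young animals (log2 fold change 2.21 ± 0.37, limma adjusted p = 0.0257). Bag2, a co-chaperone of HSP70, was at 6.8, 5 and 4.63 FPKM in the old and 0.830, 2.09 and 1.4 FPKM in young animals (log2 fold change 1.43 ± 0.28, limma adjusted p = 0.0386). Neither gene overlapped between the groups.

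The remaining lists had no call. Of 15 other sensors and membrane-bound factors, 11 had a log2 fold change below 0, with a median of -0.49, and 6 did not overlap, all with lower values in old mice, against 16.7% of all genes. Nfe2l2, the oxidant response factor NRF2 and a PERK substrate, was at 53.4, 50.5 and 63.6 FPKM in the old and 70.1, 60 and 126 FPKM in young animals. Creb3, a membrane-bound factor, was at 46.3 ± 8.80 FPKM in the old and 38.6 ± 4.93 FPKM in young animals (SD, n = 3 each). The median was 0.16 over 18 other ATF4 and CHOP targets, whose most abundant genes were Cebpb and Atf3. Atf3, an early stress factor, was at 267, 250 and 391 FPKM in the old and 154, 212 and 172 FPKM in the young animals, without overlap (log2 fold change 0.74 ± 0.28, limma adjusted p = 0.175). Cebpb, the factor C/EBPβ, was at 179, 228 and 426 FPKM in the old and 78.3, 407 and 937 FPKM in young animals. The young range of Cebpb thus enclosed the old one.

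Of 20 other degradation genes the median was 0.02, and without overlap 1 had lower and 2 had higher values in old mice. Selenos, a selenoprotein that links derlins to the segregase p97, was at 154, 143 and 141 FPKM in the old and 43.0, 83.7 and 111 FPKM in young animals (limma adjusted p = 0.174), whereas Vcp, which encodes p97, was at 48.3 ± 11 FPKM in the old and 51.7 ± 19.0 FPKM in young animals (SD, n = 3 each). Of 28 other entry genes the median was -0.01. Ssr2, a partner subunit of Ssr1, was at 126, 108 and 128 FPKM in the old and 80.7, 71.8 and 73.1 FPKM in young animals (limma adjusted p = 0.126), so its groups stood apart where those of Ssr1 overlapped. Srp14, of the signal recognition particle, was at 182 ± 12.8 FPKM in the old and 198 ± 43.1 FPKM in young animals (SD, n = 3 each). Of 11 mitochondrial chaperones and proteases, 9 had a log2 fold change above 0, with a median of 0.44. Hspe1 and Hspd1 encode HSP10 and HSP60, which form one folding chamber. Hspe1 was at 648, 410 and 313 FPKM in the old and 186, 134 and 229 FPKM in the young animals (limma adjusted p = 0.0913), and Hspd1 at 182, 87.2 and 77.8 FPKM in the old and 77.6, 64.5 and 69.3 FPKM in young animals (limma adjusted p = 0.351). Both were highest in old mouse 1, which was also the highest library for Hsp90aa1, Hspa8 and Hsph1.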

How the data were processed

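The authors deposited 1 FPKM table per library, per the labels from 3 old and 3 young mice, with no counts. The submitters' processing notes name CASAVA 1.7, Bowtie 0.12.2 and genome build mm8 with no role, and which counter and annotation were used was not given in the sources used here. As received, the tables were damaged in part. Of 24720 rows each, 19037 were kept, namely those with a known, unique identifier and 6 values that gave whole fragments under 1 gene length, and 5683 were left out. These steps gave 19033 genes. Gene lengths equalled those of GENCODE M21 (GRCm38) for 78.85% of the kept rows with a value above 0, and coordinates are from M21. A scaling factor inside the implied depths cannot be told apart from depth.

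Genes with a mean of at least 1 FPKM were tested with limma 3.58.1 (R 4.3.3), on log2(FPKM + 1) (eBayes with trend, two-sided, Benjamini-Hochberg adjustment over 10010 genes). This scale understates changes of low genes. The fit was tested on simulated data. Since each library is a mouse of its own, p-values reflect variation among animals together with any from sample and library preparation. With 1 library per mouse these cannot be told apart. Every member with values is described; of each other list up to 4 genes past the threshold are named, or the 2 with the highest mean FPKM where none passed. The members and lists were chosen with earlier results of these data known. Shared sequence was measured as 50-base words of M21 transcripts also found in other genes. Motifs were searched on both strands.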

Additional observations from a re-analysis of the deposited data

How the results depend on the processing

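Of 16 alternative analyses, 5 ended the call of Dnajb1, and in none was another member called. Of 489 member values, 464 kept their direction and their side of the threshold, and 20, of 8 members that were not called, changed sign. The number of genes called, 498, was 323 with a pseudocount of 0.01, 223 without the filter, 292 with a mean of at least 5 FPKM, and 84 to 403 with 1 mouse left out, where 0 to 1 members were called. Mouse numbers were shared between the groups, and the labels do not say whether they pair the mice. Deviations of same-numbered mice correlated at -0.0941, -0.00324 and 0.0102. These values gave no sign of pairing, but with 3 mice per group they cannot exclude it. With the replicate block, 126 genes and 0 members were called, and the adjusted p of Dnajb1 was 0.0793 in limma. The causes were not tested. Low counts limit Derl3, Chac1 and Trib3, and 11 of the 43 genes had no usable row.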
